A study of Mus musculus with 125 samples.

Results

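The endothelial cells described here came from the cerebral cortex of mice at postnatal day 8 (P8). They numbered 4318 of the 7305 cell barcodes deposited for that library, and the 5 single-cell libraries of the series held 42340 barcodes in all. A barcode was taken when it had at least 200 genes, at most 10% of its UMIs (unique molecular identifiers, each standing for 1 captured transcript molecule) from mitochondrial genes, UMIs of at least 3 of the endothelial genes Cdh5, Pecam1, Egfl7, Esam, Tie1 and Kdr, and no UMI of Tyrobp (microglia), Epcam (epithelium) or Pdgfrb (pericytes). These 9 genes chose the cells, so their values are no finding. Of the 7305 barcodes, 6897 passed the limit on genes, 5277 also passed the mitochondrial limit and 4778 also held 3 endothelial genes. The 3 barred genes then removed 460 barcodes, of which Pdgfrb alone or with others accounted for 415. The 134 cells just inside the threshold, with exactly 3 of the 6 genes, had a median of 2633 UMIs, and the 123 barcodes just outside it, with 2, had a median of 976 UMIs.

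The study measured open chromatin and RNA in mouse endothelium of several organs and ages, with single-cell RNA libraries of the brain at embryonic day 9.5 (E9.5), 12.5 (E12.5) and 16.5, at P8 and in adults of 2 months. For P8 and adult mice the cortex was dissected and dissociated with a neural tissue kit, whereas whole embryonic brains were digested with collagenase. In each case cells carrying CD31, the protein of Pecam1, were enriched on magnetic beads, and libraries were made with a 3′ UMI kit. There was 1 library per age. Strain, sex, genotype and the number of mice per library were not given in the sources used here, so the P8 cells may come from a single mouse or several. With 1 library per age no test between ages was possible, and the intervals below, exact at 95%, cover counting error only. The same rule found 2850 of 5552 barcodes in the adult cortex, 5302 of 8310 in the E12.5 brain and 5183 of 17176 in the E9.5 brain. The E16.5 library was not used here.

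The P8 cells held 51322052 UMIs, with a median of 8029.5 per cell and a range of 511 to 131088. Their median was 2833 genes and 5.78% mitochondrial UMIs. The adult cells were shallower, at a median of 4690.5 UMIs, and the E12.5 and E9.5 cells had medians of 10020.5 and 7003 UMIs. The P8 library shared 8 barcodes with the adult library, 29 with E9.5 and 3 with E12.5. Levels below are CPM, the summed UMIs of a gene per 1000000 UMIs of the cells. They are not scaled by transcript length: a 3′ kit reads 1 end of each transcript, so a longer transcript gives no more UMIs, though capture can differ between genes.

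Endothelial cells line every blood vessel. In the brain they form the blood-brain barrier: tight junctions seal the gaps between them, vesicle transport across them is kept low, carriers bring glucose, lactate and amino acids into the tissue, and efflux pumps return drugs and waste to the blood. Wnt/beta-catenin signalling from the neural tissue sets up these features, and in the young cortex the network is still growing from tip cells that lead each new sprout, while arteries, capillaries and veins take on separate identities.

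The label held up against endothelial genes that the rule did not use. All 20 genes of a list of further endothelial markers were detected, as they were in the barcodes with pericyte or erythroid markers described below. Their summed level was 14661 CPM in the endothelial cells, against 1027 and 1906 CPM in those 2 groups. Cldn5, the main tight junction claudin of brain endothelium, stood at 5228 CPM (interval 5208 to 5248) and had a UMI in 99.6% of cells. The VEGF receptor Flt1 was at 1258 CPM in 98.4% of cells, and Ramp2, part of the adrenomedullin receptor, at 1100 CPM in 98.3%. The transcription factor Erg was lower, at 99.2 CPM in 55.4% of cells, and Sox18 was at 52.9 CPM in 37.9%.

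Levels were also taken in 163 P8 barcodes that carried at least 3 pericyte markers and at most 1 of the 6 endothelial genes. These barcodes had a median of 3617 UMIs, against 8029.5 in the endothelial cells. Cldn5 was at 185 CPM there (40.5% of barcodes), Flt1 at 134 (32.5%) and Erg at 6.44 (2.45%). All 3 were far below their levels in the endothelial cells, but the limit on endothelial genes had already chosen barcodes poor in endothelial RNA. Barcodes with pericyte markers also hold pericyte RNA, so a level there is not a measure of free RNA. These barcodes were chosen as a background after seeing the data, because the larger group of 568 barcodes with erythroid markers was shallow, at a median of 1061.5 UMIs, with 23.7% erythroid UMIs. The same limit on endothelial genes applied to that group. In it Cldn5 was at 595 CPM (53.5% of barcodes), Flt1 at 219 (23.6%) and Apln at 39.0, higher than in the pericyte-marker barcodes. Haemoglobin behaved otherwise: Hbb-bs, the adult beta globin, was at 10838 CPM in 97.3% of endothelial cells and at 12879 CPM in 98.8% of the pericyte-marker barcodes. It was uneven over the clusters of endothelial cells described below, from 307 CPM to 108096 in cluster 7, and the source of its UMIs was not tested. Globins and other erythroid genes took 1.61% of the UMIs of the endothelial cells, and 5.84% of the cells had at least 5% of their UMIs from them.

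Markers of other cell types were counted in the endothelial cells. UMIs of at least 2 markers of 1 list were found for erythroid cells in 3605 cells (83.5%), for neural progenitors in 361 (8.36%), for pericytes in 284 (6.58%), for astrocytes in 246, for microglia in 137, for the choroid plexus in 77, for smooth muscle in 25, for neurons in 5 and for fibroblasts in 3. Defining markers were low: Tmem119 of microglia stood at 0.487 CPM, Aqp4 of astrocytes at 0.721, Acta2 of smooth muscle at 0.974, Col1a1 of fibroblasts at 0.234, and no UMI of the neuronal transporter Slc17a7 was seen. The pericyte gene Rgs5 was higher, at 70.9 CPM in 17.4% of cells, beside 10466 CPM in the pericyte-marker barcodes. Of 210 listed genes at or above 20 CPM, 20 moved by more than 1.5 times when cells with UMIs of any 2 markers out of the pericyte, smooth muscle, microglia, astrocyte and neuron lists together were left out, which left 2292 cells; among them were Gkn3, Mgp, Vcam1, Eln, Rgs5, Gja1 and 13 division genes.

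The most abundant transcripts outside mitochondrial and ribosomal genes were Tmsb4x (20482 CPM), the nuclear RNA Malat1 (17582) and the ferritin gene Fth1 (15730). Hbb-bs followed. Bsg, which encodes the lactate carrier partner basigin, stood at 9206 CPM, and Cldn5 was ninth in rank. Also among the 20 highest were the matrix gene Sparc (3897), Itm2a (2752), Igfbp7 (2618) and Ctla2a (2123), all often abundant in endothelium.

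Nutrient carriers were strongly expressed. The highest was Slc16a1, the lactate and ketone carrier MCT1, at 1745 CPM (1733 to 1756) in 94.7% of cells. Slc3a2, the partner chain of several amino acid carriers, was at 1002 CPM, Slc2a1, the barrier's glucose carrier GLUT1, at 863 CPM (855 to 871), and Slc38a5, a glutamine carrier, at 787 CPM. The cationic amino acid carrier Slc7a1 (770), the taurine carrier Slc6a6 (778) and the zinc carrier Slc39a10 (509) were also abundant. Slc7a5, the large neutral amino acid carrier LAT1, was at 230 CPM. The lowest of the 16 were Slc7a3 at 24.0 and the thiamine carrier Slc19a3 at 16.7 CPM.

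Among efflux pumps and organic anion carriers, Slco1c1, which carries thyroxine, led at 1687 CPM in 98.0% of cells. Slc22a8 was at 460 CPM, the pump Abcg2 at 367 and Abcb1a, which encodes P-glycoprotein, at 285 (280 to 289) in 80.7% of cells. Slco1a4 reached 279 CPM but was found in only 56.7% of cells, fewer than Abcb1a at a like level. Abcc4 stood at 62.3 CPM, and Abcc1 was at 3.02 CPM, beside 11.3 CPM in the pericyte-marker barcodes.

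Vesicle transport was represented by its restraint and its receptors. Mfsd2a, the lipid carrier that restrains transcytosis, was at 824 CPM in 93.7% of cells, and the transferrin receptor Tfrc at 1032 CPM in 92.7%. Lrp8, a lipoprotein receptor, was at 390 CPM. Cav1, the coat protein of caveolae, was at 240 CPM, beside 137 in the pericyte-marker barcodes. Plvap, the diaphragm protein of fenestrated vessels, averaged 14.1 CPM and had a UMI in 1.76% of cells. It was not spread over the cells: its UMIs lay mostly in 1 group of 34 cells described further on.

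Of the 10 tight junction genes, 8 reached 20 CPM and Cldn5 exceeded the next by more than 10 times. Tjp1, the scaffold ZO-1, was at 404 CPM, Lsr of tricellular junctions at 247, Ocln (occludin) at 174.9 and Jam2 at 155. Cldn12, at 3.35 CPM, and Cgn, with 1 UMI in all cells, were at or below the pericyte-marker level. The Wnt receptors were low by comparison: Fzd6 at 143 CPM, Tspan12 at 72.8, Fzd4 at 68.3, Lrp6 at 57.0, Adgra2 (GPR124) at 37.8, Reck at 8.63 and Lrp5 at 6.39. Fzd4, Lrp6, Adgra2, Lrp5, Reck and Tspan12 stood no more than 1.5 times above the level of the pericyte-marker barcodes, where they lay between 6.44 and 135 CPM.

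Targets of Wnt signalling were detected, with Lef1 at 192 CPM in 74.2% of cells, Tnfrsf19 at 113, Nkd1 at 111 and Tcf7 at 95.5. The Wnt inhibitors Notum (58.8 CPM) and Apcdd1 (57.3) stood against 3.22 and 4.83 CPM in the pericyte-marker barcodes. Axin2, a common readout of the pathway, was at 35.2 CPM and was higher, at 74.0, in those barcodes. The barrier transcription factors Foxq1 (393 CPM) and Foxf2 (144) were present, together with Sox17 (248), Fli1 (187) and Ets1 (507).

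Single cells differed most in globin genes, and arterial genes were among the next. Variation was measured as the variance of Pearson residuals, which is near 1 when a gene varies only by counting and depth. Over 11608 genes with a UMI in at least 1% of cells the median was 1.08, and 4.45% of the genes exceeded 2. Hbb-bs (234), Hba-a1 (204) and Hbb-bt (117) came first. Gm42418, which overlaps ribosomal RNA repeats, was at 49.0, Malat1 at 34.4, Fth1 at 22.1, Rgs5 at 18.3 and Fos at 18.2. Among genes of the vessel wall were Cxcl12 (37.6), a chemokine of arteries and arterioles, Gkn3 (34.1), a marker of brain arteries, the growth factor Ptn (27.9), the elastic fibre gene Fbln5 (24.2), Tm4sf1 (23.5), Plvap (20.4), Mgp (18.1), Eln (17.5) and Gja4 (15.7), which encodes an arterial gap junction protein.

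Clustering divided the cells into 13 groups, numbered by size from 653 cells to 34. The clusters were built from these same genes, so their differences are a description with no test. Beside each count of listed genes the share of all 17955 genes detected that met the same 2-fold rule is given. Clusters are called tip-like, arterial-like, venous-like or division-like from those lists, and the others keep their numbers. Clusters 1, 2, 5, 9, 10, 11 and 13 were recovered under each of 7 other settings, with a best overlap (cells shared over cells in either) of at least 0.828. Clusters 3, 4, 6 and 8 were not: their lowest overlaps were 0.32, 0.292, 0.116 and 0.163. Cluster 12 was not recovered under 2 settings (lowest overlap 0.0849).

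**Figure D1:**
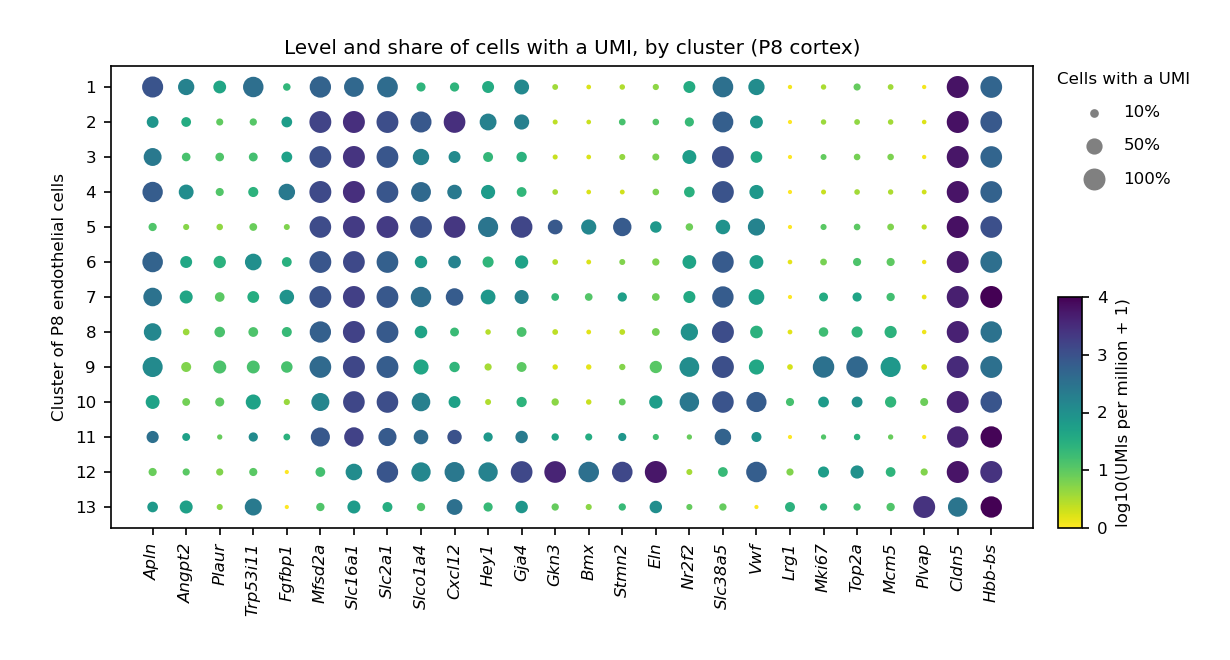
Level of 26 genes in each of the 13 clusters of P8 endothelial cells. Colour gives log10 of CPM plus 1 and dot size the share of cells with a UMI; tip genes are high in cluster 1, Cxcl12 in clusters 2 and 5, Gkn3 and Eln in cluster 12, Vwf in clusters 10 and 12, division genes in cluster 9 and Plvap in cluster 13.

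Cluster 1 was tip-like. It held 653 cells, 15.1% of all (interval 14.1 to 16.2), and 11 of 12 tip cell genes were at least 2-fold higher in it than in the other cells, where 10.4% of all genes were. Apln, the apelin peptide released by sprouting cells, was at 899 CPM in 91.0% of its cells. Trp53i11 was at 363 CPM, the angiopoietin Angpt2 at 171, the basement membrane gene Nid2 at 194, Adm at 87.0 and Mcam at 62.2. Among its leading genes by fold were Ppef1, Scn8a, Gsap, Fxyd6, Apod, Trp53i11, Madcam1, Ttll3 and Kcne3, of which Trp53i11 and the potassium channel subunit gene Kcne3 are listed tip genes. The pericyte list summed to 159 CPM in cluster 1. Of its 8 genes, 3 were at least 2-fold higher there, beside the same 10.4% of all genes, and 0 lower. The part of pericyte RNA in the tip-like profile was not tested.

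The tip-like cells had a lower sum of nutrient carriers than all but 2 small clusters. It was 4169 CPM, against 9702 to 10709 in clusters 2, 3 and 4 and 6387 to 8938.5 in clusters 5 to 11. In clusters 12 and 13 it was lower still, at 2289 and 988. Single carriers are set beside cluster 4, which itself had a tip gene sum of 1055 CPM and was not recovered under every setting. Slc16a1 was at 462 CPM in the tip-like cells and 2918 in cluster 4, Slc2a1 at 397 and 849, and Slco1a4 at 24.2 and 446. Ly6a (39.5 against 262) and the flow-responsive factor Klf2 (272 against 963) followed the same order. Cldn5 did not: it was at 6283 CPM in cluster 1 and 6192 in cluster 4. The basement membrane sum, 10007 CPM, was higher than in the other clusters except the Plvap cells, and the laminin chain Lamb1 was at 396 CPM against 112 in cluster 4.

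Apln was not limited to the tip-like cells. It was at 684 CPM in cluster 4, 542 in cluster 6 and 240 in cluster 3, and lowest in the arterial-like clusters (11.6 in cluster 5 and 7.22 in cluster 12) and the venous-like one (48.8). In all, 58.8% of P8 endothelial cells had an Apln UMI, beside 3.07% of the pericyte-marker barcodes, where the level was 8.05 CPM against 312 (307 to 317). After each cell was thinned to 2000 UMIs the share was 35.3%. Other tip genes were scarcer: Esm1 was at 7.13 CPM, Kcne3 at 6.47 and Plaur at 15.4. Several tip genes were as high in the pericyte-marker barcodes as in the endothelial cells: Angpt2 (48.3 against 44.1 CPM), Trp53i11 (69.2 against 68.4) and Mcam (117 against 16.1). The part of pericyte RNA in their levels was not tested.

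Clusters 2, 3 and 4 held 14.9%, 14.3% and 11.2% of the cells and the highest sums of 10 capillary genes, at 11918, 10906 and 12205 CPM. They differed in a few genes. In cluster 2 Cxcl12 was at 2886 CPM, the metallothionein Mt1 at 165 and the Notch target Hey1 at 180, and 2 of its 10 leading genes were metallothioneins. The pericyte list summed to 220 CPM in cluster 2, 126 in cluster 3 and 117 in cluster 4, with Rgs5 at 177 in cluster 2, its highest. The astrocyte list summed to 213, 92.5 and 150 CPM, and the microglia list to 90.9, 86.4 and 108. The part of other cells in cluster 2 was not tested. Cluster 4 was led by Fgfbp1, which releases FGFs from the matrix, at 242 CPM in 52.1% of its cells against 51.8 in cluster 3. Cluster 3 had Slc38a5 at 1079 CPM and Nr2f2, a vein-determining factor, at 59.9, against 630 and 19.2 in cluster 2. Clusters 6 and 8, of 362 and 263 cells, had tip genes at a sum of 974 CPM in cluster 6 and S phase genes at a sum of 401 in cluster 8. The tip sum was higher in clusters 1 (2028), 4 (1055) and 13 (1244), and the S phase sum in cluster 9 (1094).

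The arterial-like cells formed clusters 5 and 12. Cluster 5 held 363 cells (8.41%), and 15 of 18 arterial genes were at least 2-fold higher in it, beside 11.8% of all genes. Gja4 was at 1438 CPM in 96.1% of cells, Cxcl12 at 2301, Fbln5 at 873, Gkn3 at 793 in 39.9% of cells, the neuronal-named Stmn2 at 723, Vegfc at 311, Hey1 at 275, Sema3g at 161, the arterial ligand Efnb2 at 149 and the kinase Bmx at 143. Gja4 was also at 676 CPM in the pericyte-marker barcodes. Of 16 nutrient carriers, 2 were at least 2-fold higher in cluster 5 than in the other cells, beside the same 11.8% of all genes, and 4 at least 2-fold lower, beside 29% of all genes, both near those shares. Slc2a1 was at 1982 CPM, the highest of all clusters, whereas Slc38a5 was at 90.7, Slc7a5 at 63.7 and Slc1a1 at 19.8. The carrier Slco1a4 was at 1017 CPM and Apln at 11.6.

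Cluster 12 was small, 36 cells (0.834%), and 16 of 18 arterial genes were at least 2-fold higher in it, beside 12.9% of all genes. Of 14 venous genes, 7 were at least 2-fold higher as well, beside the same 12.9%. Their sum was 1781 CPM, below only that of cluster 10 (2754). Elastic fibre genes stood out, with Eln at 5640 CPM in every cell and Fbln5 at 3594, against 73.0 and 873 in cluster 5. Gkn3 reached 3938 CPM, the calcification inhibitor Mgp 3792, Bmx 342 and the gap junction gene Gja5 282. Transport genes were low: Mfsd2a was at 14.4 CPM, against 1236 in cluster 5, Slc16a1 at 118 against 1995, and Slc7a5 at 2.41 against 63.7. The fibroblast list summed to 424 CPM, of which Col3a1 made 421 in 25.0% of cells; Mgp was also at 5682 CPM in the pericyte-marker barcodes. The part of other cells in these values was not tested.

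Cluster 10 was venous-like, with 220 cells (5.09%). Of 14 venous genes, 11 were at least 2-fold higher in it, beside 8.9% of all genes. The list was not particular to it: in cluster 12, 7 of the 14 were at least 2-fold higher, beside 12.9% of all genes. The sums were 2754 CPM in cluster 10 and 1781 in cluster 12. Vwf, the von Willebrand factor gene, was at 698 CPM in 82.3% of cells, and at 657 in the arterial-like cluster 12. Nr2f2 was at 255 CPM against 2.41 in cluster 12, though the pericyte-marker barcodes held 457. Ackr1, the chemokine receptor of postcapillary veins, was at 59.3 CPM in 34.5% of cells and reached 15.4 at most elsewhere. The lipid carrier Apoe was at 2296 CPM, Slc38a5 at 908 and Mfsd2a at 150. Selp, the P-selectin gene, was at 7.70 CPM. The leading genes by fold were Col6a6, Tnc, Cldn11, Ptgs2, Lbp, Myof, Lrrn1, Bmp2, Zbtb16 and Adgrg6.

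Cluster 13 held 34 cells (0.787%) that lacked most barrier genes. Every one had Plvap UMIs, at 2612 CPM, against 6.84 at most in the other clusters. Cldn5 was at 275 CPM, Slc2a1 at 31.0, Mfsd2a at 11.6 and Slco1c1 at 34.9. Of 16 nutrient carriers, 15 were at least 2-fold lower than in the other cells, beside 49.3% of all genes, and their sum was 988 CPM. The 10 Wnt target genes summed to 34.9 CPM, against 149 or more elsewhere, and Foxq1 was at 7.75. The 7 Wnt receptors and co-receptors went the other way, with a sum of 686 CPM against 538 at most elsewhere. Of these 7, 3 were at least 2-fold higher, beside 11.4% of all genes, and 1 lower, beside 49.3%. Plpp3 (3406 CPM), Emcn (2228), Rgcc (1845), Esm1 (562), Col13a1 (450), Cd300lg (450) and the water channel Aqp1 (202) were high, and collagen IV was at 5429 CPM for Col4a1. All 12 immediate early and heat shock genes were at least 2-fold higher, beside 11.4% of all genes, with Fos at 5278 CPM. The sum of this list was 19980 CPM in cluster 13, 16370 in cluster 12 (10 of 12 genes), 7340 in cluster 10 (8 of 12), 6633 in cluster 5 (4 of 12) and at most 4404 elsewhere; its part in the arterial-like and venous-like profiles was not tested. Their erythroid UMIs summed to 19057 CPM. This group came back whole under each of the 7 other settings; from where in or around the cortex it came cannot be told from the library.

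**Figure D2:**
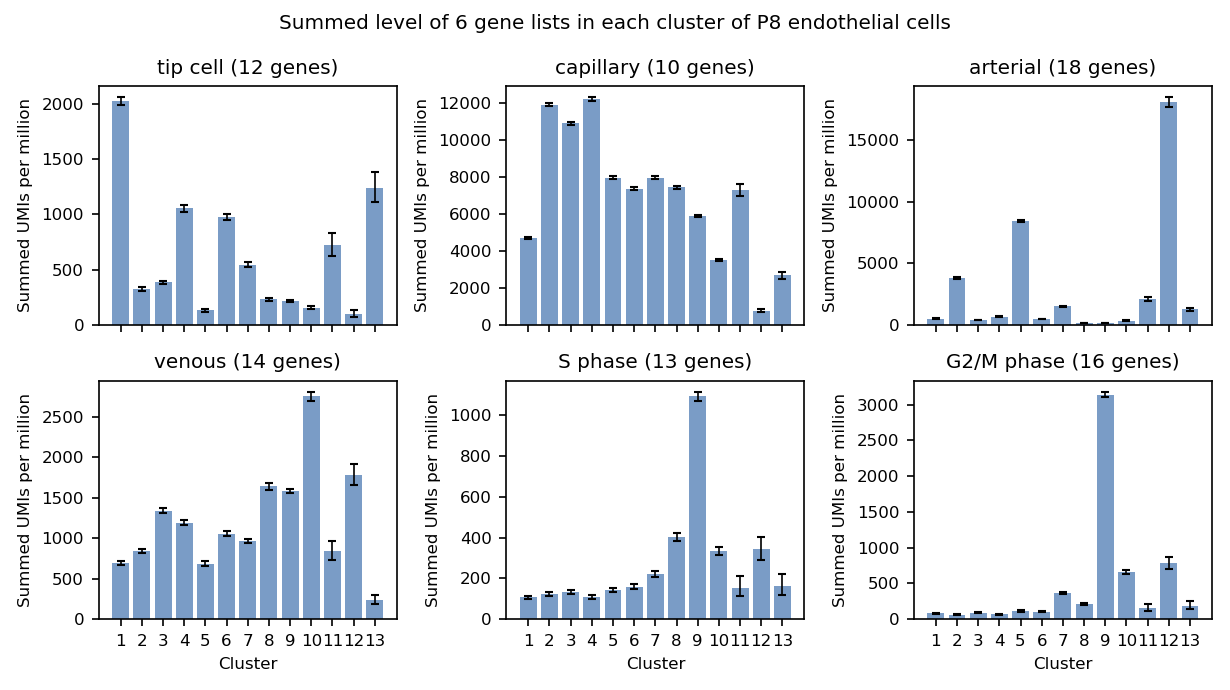
Summed CPM of 6 gene lists in the 13 clusters, with exact 95% counting intervals as error bars; each panel has its own scale. Tip cell genes peak in cluster 1 (2028), arterial genes in cluster 12 (18079), venous genes in cluster 10 (2754) and both division lists in cluster 9.

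Along these clusters the lists ran together or apart. Over 4223 cells thinned to 2000 UMIs, the sum of nutrient carriers correlated with that of efflux pumps at r = 0.558 and with capillary genes at 0.481. Tip genes ran against nutrient carriers (r = -0.257), efflux pumps (-0.232) and arterial genes (-0.195), and arterial against venous genes at -0.13. These points are cells of 1 library, a gene in both lists of a pair, such as Slc16a1, was left out of its coefficient, and the coefficients are a description.

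Cells of clusters 7 and 11 stood apart in globin or in depth. Cluster 7 (274 cells, 6.35%) had 16% of its UMIs from erythroid genes, with Hbb-bs at 108096 CPM, the haem enzyme Alas2 in 91.2% of cells and a median of 14046 UMIs. It dissolved when cells of 5% or more erythroid UMIs were left out. Cluster 11 (133 cells, 3.08%) had a median of 1727 UMIs, 0.215 of the median of all cells, and its leading genes included AY036118, Ttr, Lars2 and Gm42418. It stays unnamed.

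Dividing cells were plain at P8. Cluster 9, 235 cells (5.44%), was division-like. All 13 S phase and all 16 G2/M genes were at least 2-fold higher in it, beside 8.9% of all genes. Top2a, which untangles replicated DNA, was at 465 CPM in 95.7% of cells, Mki67 at 322 and Tyms at 187. The median depth of cluster 9 was 29404 UMIs, 3.66 times that of all cells. The doublet caller marked 1 of 7305 P8 barcodes and so did not work, doublets were not removed, and their part in this cluster was not tested. Its Slc38a5 (1103 CPM) and Nr2f2 (113) were on the side of clusters 3 and 8, and its Cxcl12 (23.3), Apln (124) and Gkn3 (0.683) were low.

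To compare ages at equal depth, each cell was thinned to 2000 UMIs and called in cycle when at least 3 of the 29 S and G2/M genes had a UMI. By this call 345 of 4223 P8 cells were in cycle, 8.17% (7.36 to 9.04). In this draw none of 2680 adult cells was, which allows a share of up to 0.112% on a floor of 3 cells, or 0.138% by the exact interval. Both limits hold for this draw only. In 5 other random draws the P8 share was 7.74% to 8.41% and 1 to 4 adult cells were called, up to 0.149%. Without the cells of at least 5% erythroid UMIs, 6 of 2629 adult cells were called, 0.228% (0.0838 to 0.496), and 8.53% of P8 cells. Before thinning the shares were 28.4% and 4.39%. A total of 95 P8 and 170 adult cells were too shallow to enter. Among P8 barcodes with pericyte markers, 14 of 113 were in cycle, 12.4% (6.94 to 19.9), so division genes were not limited to endothelium.

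By cluster, 93.2% of the cells of cluster 9 were in cycle, and they made 63.2% of all cells called. The next shares were 16.4% in cluster 8, 13.9% in cluster 12 and 11% in the venous-like cluster 10. The arterial-like cluster 5 had 1.93%, the tip-like cluster 1 had 0.462% and cluster 4 had 0 of 481.

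**Figure D3:**
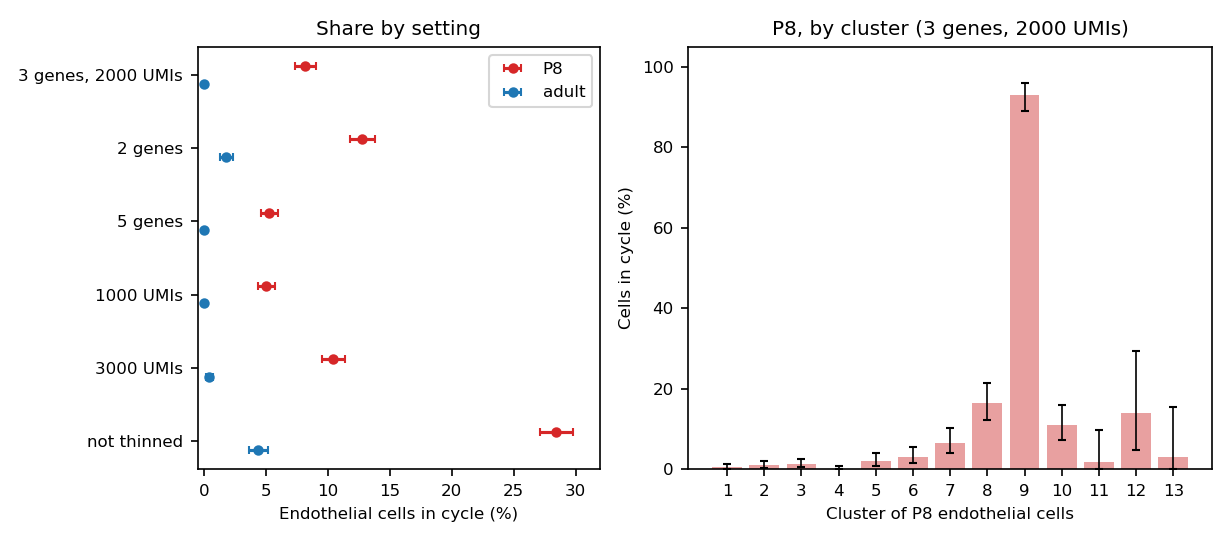
Left, share of P8 and adult endothelial cells called in cycle under 6 settings of the minimum number of genes and the depth after thinning; right, the share in each P8 cluster. Error bars are exact 95% binomial intervals; P8 lies above adult in every setting (8.17% against 0% in the first), and cluster 9 holds most cycling cells.

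The P8 cells were then set beside adult cortex endothelial cells chosen by the same rule. This is 1 preparation against another, so age and preparation cannot be told apart. Of 6751 genes with at least 20 CPM at either age, 700 (10.4%) were at least 2-fold higher at P8 and 900 (13.3%) at least 2-fold lower, and the median log2 ratio of P8 over adult was -0.06. Of the 700 higher genes 369 reached 20 CPM at P8 only, and of the 900 lower genes 431 in the adult only; such genes entered through the age at which they were high. Markers of other cell types also differed: the pericyte list summed to 99.3 CPM at P8 and 210 in the adult, the smooth muscle list to 10.3 and 53.6 (Acta2 0.974 and 14.2), the fibroblast list to 6.14 and 15.8 and the erythroid list to 16061 and 8375. Ratios were also computed without the cells with markers of other types defined above, a set that uses no erythroid or fibroblast gene, and without the cells of at least 5% erythroid UMIs; beyond that, their part was not tested. When mitochondrial and ribosomal genes were left out of the totals the split turned to 884 higher and 834 lower, with a median of 0.05.

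Apln and division genes had some of the largest ratios of P8 over adult. Apln was at 312 CPM against 0.326 in the adult cells, from 15997 and 6 UMIs, a 956-fold ratio (counting interval 439 to 2604). The actin bundler Fscn1, found in protruding cells, was 282-fold higher (199 against 0.707 CPM), Kit, the stem cell factor receptor, 168-fold (36.5 against 0.217) and the sulfotransferase gene Chst1 162-fold. Lrrc55, Tnfrsf11b and Madcam1 each had 2 adult UMIs, at 52.7, 51.0 and 24.4 CPM at P8. The others were mostly genes of division, among them Mki67 (207-fold), Cenpf (189-fold), Top2a (149-fold) and the histone gene Hist1h1b (241-fold), and Ttr.

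Ttr, the transthyretin gene, which the choroid plexus makes in bulk, had 1791 UMIs in the P8 cells and 0 in the adult cells, at least 214-fold higher on a floor of 3 UMIs. It was also at 88.5 CPM in the P8 pericyte-marker barcodes, against 34.9 in the endothelial cells, and between 20.8 and 136 CPM in every P8 cluster. The source of these UMIs was not tested.

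Of the 12 tip genes, 7 reached 20 CPM at P8, none did in the adult and 5 did at neither age. The comparison thus took them in through P8 alone, and the number of them that were higher is not read as a result. Summed over all 12, they stood at 620 CPM against 45.8, of which Apln made 312 at P8. Angpt2 was 9.55-fold higher (44.1 against 4.62 CPM), the chemokine receptor Cxcr4 14.6-fold and Trp53i11 26.8-fold. Adm was not past 2-fold, at 23.4 against 13.5. The division lists also reached 20 CPM at P8 only, in 12 of 16 G2/M and 9 of 13 S phase genes. The G2/M genes summed to 690 CPM against 13.2, and the S phase genes to 340 against 92.1. Without the cells in cycle Mcm3, Mcm5, Rrm2, Tipin and Nusap1 were within 2-fold.

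Of 13 basement membrane genes, 10 reached 20 CPM at both ages, and of these 6 were at least 2-fold higher at P8 and 1 lower, where 331 of all 5333 such genes were higher and 469 lower. Lamb1 and Nid2 reached it at P8 only and Lama5, just below it at P8, in the adult only; with these the counts were 8 higher and 2 lower of 13, beside 10.4% and 13.3% of all genes compared. Lamb1 was at 112 CPM against 1.03, 109-fold higher (69.6 to 181), whereas Lamb2 was at 72.6 against 173, 2.38-fold lower, and Lama5 at 20.0 against 43.0, within 2-fold when mitochondrial and ribosomal genes were left out of the totals or cells with markers of other types were. Lama4 was 4.93-fold, Nid1 8.96-fold, Col4a2 3.11-fold and Col4a1 2.44-fold higher. The pericyte-marker barcodes had more of Lamb1 (373 CPM), Nid1 (579), Lama4 (493) and Col4a1 (2909) than the endothelial cells, and the part of pericyte RNA was not tested.

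Barrier transport did not move one way. Of 16 nutrient carriers, 3 were at least 2-fold higher at P8 (10.4% of all genes were), 6 lower (13.3% of all genes) and 7 within 2-fold. Slc5a6, higher, had reached 20 CPM at P8 only, and Slc19a3, lower, in the adult only. Slc16a1 was 4.54-fold higher (1745 against 384 CPM, 4.44 to 4.66) and Slc38a5 3.37-fold higher (787 against 233). Slc2a1 was 6.405-fold lower (863 against 5525, 6.33 to 6.48), Slc7a5 3.38-fold, Slc19a3 3.36-fold and Slc6a6 2.62-fold lower. Slc1a1 (2.21-fold lower) and Slc5a6 (2.05-fold higher) were within 2-fold without the cells in cycle.

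No efflux or organic anion carrier was at least 2-fold higher at P8, and 4 of 7 were lower, beside 13.3% of all genes, with a median log2 ratio of -1.72. Slco1a4 was 6.80-fold lower (279 against 1900 CPM), Abcb1a 4.11-fold, Abcc4 3.77-fold and Abcg2 3.30-fold lower. Slco1c1, at 1687 against 1842, and Slc22a8, at 460 against 378, were within 2-fold. Slco1a4 also differed in how many cells held it: after thinning to 2000 UMIs 35.4% of P8 cells and 94.2% of adult cells had a UMI.

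Genes of vesicle transport split, with 2 of 9 at least 2-fold higher at P8 and 4 lower (10.4% and 13.3% of all genes). The caveolar genes Cavin1 and Cavin2 were 4.33-fold and 3.56-fold lower, and Cav1 was within 2-fold (240 against 261 CPM). Lrp8 was 3.03-fold and Tfrc 2.01-fold higher at P8; Tfrc was within 2-fold as a mean over cells, and Cav2, 2.23-fold lower, likewise. Mfsd2a, at 824 against 443, was 1.86-fold higher and passed 2-fold without the cells in cycle. Of 8 tight junction genes only F11r was past 2-fold, 4.95-fold lower (27.4 against 136), beside 13.3% of all genes, and Cldn5 was close (5228 against 4883, 1.07-fold). Jam2, 2.00-fold lower, lay at the limit.

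**Figure D4:**
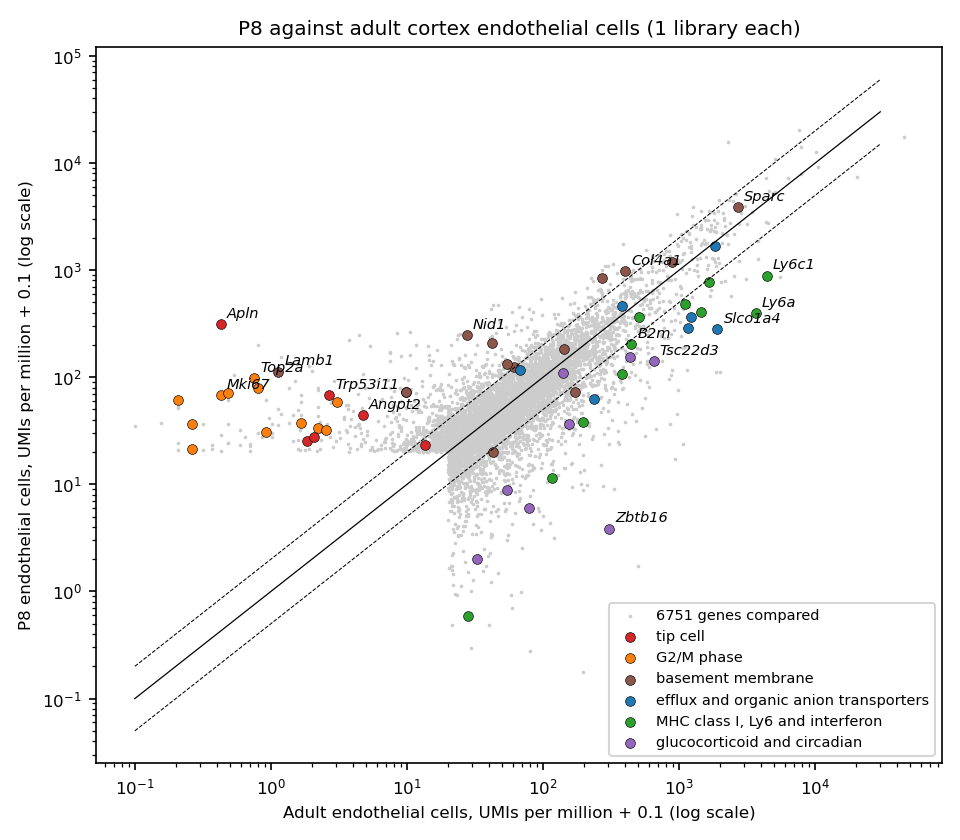
Level of 6751 genes in P8 (vertical) and adult (horizontal) cortex endothelial cells, in CPM (UMIs per 1000000) plus 0.1 on log axes, with 6 gene lists in colour, equality as a solid line and 2-fold differences as dashed lines. Apln (312 against 0.326) lies far above the lines and Ly6a (397 against 3642) below; the tip cell and G2/M genes drawn entered through P8 only, and 4 of the glucocorticoid genes through the adult only.

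Wnt receptors were lower at P8 in 5 of 7 cases and higher in none, beside 13.3% of all genes (median log2 ratio -1.10). Reck (6.23-fold lower) and Lrp5 (4.74-fold) had reached 20 CPM in the adult only, and Fzd4 was 3.65-fold lower. All 5 stood no more than 1.5 times above the pericyte-marker barcodes at P8, and the pericyte list was lower at P8 as well; without the cells with markers of other types the 5 were still past 2-fold, Lrp6 only just. Lrp6 and Adgra2 passed 2-fold only narrowly and not under every scaling. Of 8 target genes compared, Lef1 (3.04-fold) and Axin2 (3.70-fold) were lower and Fgfbp1, taken in through P8 only, was 33.7-fold higher (49.4 against 1.47 CPM, 23.1 to 51.2). Among 15 transcription factors of brain endothelium, 3 were lower, Epas1 (3.48-fold), Lef1 and Sox17 (2.37-fold), and none was 2-fold higher.

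Genes of vessel type were lower at P8 more often than higher, 8 against 2 of 17 arterial genes and 7 against 2 of 10 venous genes, beside 13.3% and 10.4% of all genes. Of those lower, 4 arterial genes and 1 venous gene had reached 20 CPM in the adult only. Alpl was 39.5-fold lower (3.04 against 120 CPM), Mgp 21.2-fold, Bmx 10.5-fold, Gkn3 8.81-fold, Sema3g 7.43-fold and Cxcl12 4.21-fold. The Notch ligand Dll4 (2.28-fold) and Gja4 (2.12-fold) were higher. Of the venous genes, Tgm2 was 5.79-fold, Vcam1 5.15-fold and Ephb4 3.31-fold lower, and Slc38a5 and Icam1 (2.48-fold) higher; Vwf, 2.27-fold lower, was within 2-fold as a mean over cells. Smooth muscle and pericyte markers were lower at P8 as well, and Mgp was at 5682 CPM in the P8 pericyte-marker barcodes; without cells with markers of other types the 8 arterial genes were still past 2-fold, and of the venous genes Vwf was not. A pooled level mixes the share of arterial or venous cells with the level in each. Of 10 capillary genes, 3 were at least 2-fold higher at P8, 2 lower and 5 within 2-fold, beside 10.4% and 13.3% of all genes. Meox1, which had reached 20 CPM at P8 only, was 15.7-fold higher (163 against 10.3), and Spock2 was 2.86-fold lower.

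Genes of growth signals lay on both sides. Of 8 in the VEGF and angiopoietin list, 2 were at least 2-fold higher at P8, 2 lower and 4 within 2-fold, where 10.4% of all genes were higher and 13.3% lower. Angpt2 and, among the Notch genes, Nrarp had reached 20 CPM at P8 only. Flt1 was 2.99-fold lower at P8 (1258 against 3768 CPM) and the phosphatase gene Ptprb 2.75-fold lower, whereas Plxnd1 was 3.19-fold and Angpt2 9.55-fold higher. Of 8 Notch pathway genes compared, 2 were higher, 2 lower and 4 within 2-fold. The target Nrarp was 5.18-fold higher (it was at 172 CPM in the pericyte-marker barcodes, against 80.0), and Dll4 was the other higher gene, with Notch4 2.85-fold and Jag2 2.67-fold lower. Notch1 was at 163 against 213 CPM. No gene of 10 in the BMP and TGF-beta list was 2-fold higher and 5 were lower, beside 13.3% of all genes, including Smad6 (5.74-fold, at 20 CPM in the adult only), the receptor Acvrl1 (4.398-fold), Id1 (2.95-fold) and Bmpr2 (2.90-fold); the fifth, Smad7, was within 2-fold as a mean over cells and without the cells in cycle. Of 5 flow-responsive genes 3 were lower, beside the same 13.3%, and none higher: thrombomodulin (Thbd) was 8.23-fold and Klf4 3.41-fold lower, with the nitric oxide synthase gene Nos3 (85.1 against 179 CPM) also lower, but within 2-fold as a mean over cells and without mitochondrial and ribosomal genes in the totals.

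At the other end, Xdh, which encodes xanthine oxidoreductase, had 4 UMIs in the P8 cells and 3633 in the adult cells, 0.0779 against 197 CPM, a 2534-fold ratio (989 to 9305). Coro2a was 452-fold, the monooxygenase gene Fmo2 306-fold (1.62 against 495 CPM), Lncpint 151-fold and the fatty acid binding gene Fabp4 103-fold lower; Fabp4 was found in 1.018% of adult cells, Fmo2 in 48.5%. Also among the 15 largest were the hypoxia and stress gene Ndrg1 (54.0-fold, 17.2 against 930) and Itih5 (45.2-fold, 23.7 against 1068).

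Embryonic brain cells taken by the same rule give the values on the other side, from whole brain, another dissociation and other depths, so only side by side. Apln was at 28.6 CPM at E9.5, 146 at E12.5, 312 at P8 and 0.326 in adults, highest in the P8 library. Slc16a1 (16.7, 6.50, 1745 and 384), Slc38a5 (1.22, 276, 787 and 233), Mfsd2a (0.146, 115, 824 and 443) and Tfrc (13, 50.5, 1032 and 513) were likewise highest at P8. Slc2a1 was at 278, 1222, 863 and 5525. Slco1a4 (0, 0.0773, 279 and 1900), Abcb1a (0.390, 25.5, 285 and 1169), Ly6a (0.537, 3.46, 397 and 3642) and Flt1 (210, 349, 1258 and 3768) were ordered by age. Plvap went the other way from the embryo, 400 and 552 CPM against 14.1 at P8 and 3.21 in adults, as did the imprinted genes Mest (1244, 2824, 25.8 and 2.23) and Igf2 (315, 296, 3.18 and 6.63).

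**Figure D5:**
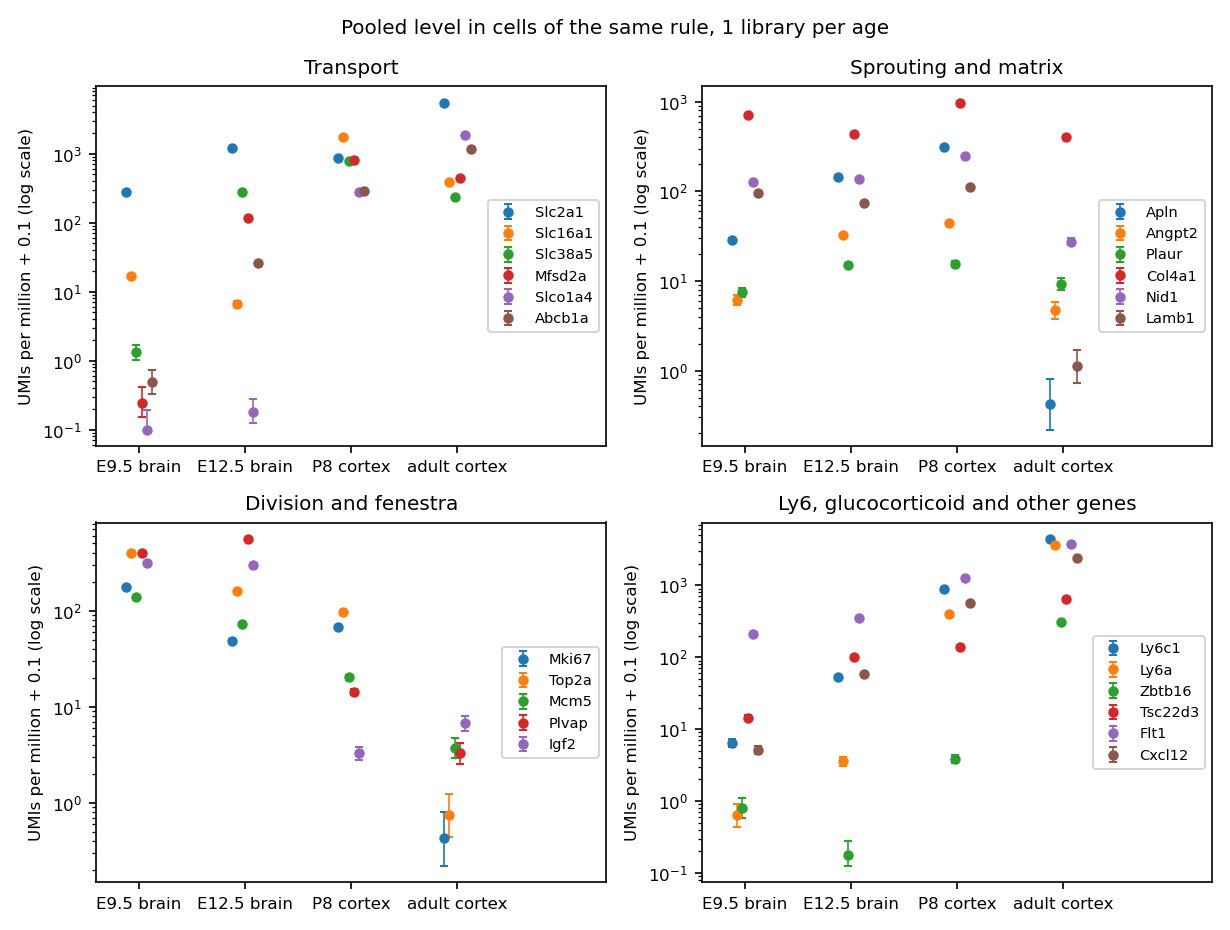
Pooled level of 23 genes in cells of the same rule from 4 libraries, as CPM plus 0.1 on a log axis with exact 95% counting intervals (mostly smaller than the points). Slc16a1 and Apln are highest at P8, Slc2a1 and Slco1a4 in adults, and Plvap and Igf2 in the embryo.

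Open chromatin at the starts of these genes was read from another assay at nearly the same age. Chromatin accessibility (ATAC-seq) peaks were given for 3 libraries of brain endothelial nuclei and 3 of all brain nuclei (input), labelled P6; the protocol text speaks of tamoxifen at P1 and P3, GFP in the vessels and collection at P7. The driver of the reporter was not named, and the peaks of each library were called separately. Of 1308 genes at 100 CPM or more in the P8 cells with a RefSeq start, 1279 (97.8%) had a peak within 500 bp of a start in at least 2 of the 3 endothelial libraries, beside 59.8% of 17961 genes. A start with a peak in all 3 endothelial and no input library was rare, 7 of 1308 genes (0.535%) beside 0.356% of all genes. Without endothelial replicate 1 it was 13 genes (0.994%) beside 1.11% of all genes, so the order of the shares turned. The endothelial libraries had 27160 to 87133 peaks and the input libraries 71759 to 131710.

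Among listed genes, 5 had a peak in all endothelial and no input library: Ly6c1, Abcb1a, Lyl1, a blood and vessel transcription factor, Plaur, the urokinase receptor, and Ackr1. Of all 17961 genes, 64 (0.356%) did. In each list that held such a gene it was 1 of 7 to 13 genes with a matched start, and the other lists held none. Lists share genes, so no share over all listed genes is given. Ly6c1 stood at 885 CPM in the P8 cells, Abcb1a at 285, Lyl1 at 38.9, Plaur at 15.4 and Ackr1 at 8.38. Apln differed, with a peak at its start in 2 endothelial libraries and all 3 input libraries. The 250 bases before the start of 5 genes are shown: 4 of those whose starts had endothelial peaks only, and Apln, the gene with the largest P8 to adult ratio, for contrast. The sequences are from RefSeq on GRCm38.p6, read in the direction of the gene, and capitals mark ETS matches. Abcb1a lies on the plus strand at chr5:8566841-8567090, Ly6c1 on the minus strand at chr15:75048838-75049087 (1 of 2 starts), Lyl1 on the plus strand at chr8:84701207-84701456, Plaur on the plus strand at chr7:24462233-24462482 and Apln on the minus strand at chrX:48034854-48035103.
Abcb1a: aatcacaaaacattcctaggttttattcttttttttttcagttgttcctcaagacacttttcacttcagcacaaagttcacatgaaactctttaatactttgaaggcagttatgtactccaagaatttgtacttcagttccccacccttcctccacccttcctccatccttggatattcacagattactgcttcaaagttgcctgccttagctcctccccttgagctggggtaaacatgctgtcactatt
Ly6c1: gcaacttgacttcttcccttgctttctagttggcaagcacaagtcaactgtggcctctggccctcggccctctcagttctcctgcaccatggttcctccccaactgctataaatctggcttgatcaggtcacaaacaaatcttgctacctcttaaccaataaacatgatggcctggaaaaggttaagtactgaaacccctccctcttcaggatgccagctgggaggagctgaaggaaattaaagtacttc
Lyl1: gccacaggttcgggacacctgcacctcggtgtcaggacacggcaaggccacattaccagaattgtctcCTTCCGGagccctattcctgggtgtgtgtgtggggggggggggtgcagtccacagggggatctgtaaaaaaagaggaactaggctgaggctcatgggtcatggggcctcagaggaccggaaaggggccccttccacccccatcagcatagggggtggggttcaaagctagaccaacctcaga
Plaur: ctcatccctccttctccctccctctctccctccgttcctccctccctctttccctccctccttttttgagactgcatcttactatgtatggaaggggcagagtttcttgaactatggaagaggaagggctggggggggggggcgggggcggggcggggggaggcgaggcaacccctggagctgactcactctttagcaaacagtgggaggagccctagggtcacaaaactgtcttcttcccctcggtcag
Apln: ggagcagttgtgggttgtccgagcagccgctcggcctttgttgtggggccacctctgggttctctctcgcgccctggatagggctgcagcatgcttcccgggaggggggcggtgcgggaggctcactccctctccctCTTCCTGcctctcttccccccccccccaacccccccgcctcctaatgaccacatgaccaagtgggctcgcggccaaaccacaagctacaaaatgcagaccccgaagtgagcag

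ETS factors such as Erg and Fli1, present in these cells, bind a core that was searched as CAGGAAG or CCGGAAG on both strands. Apln had CTTCCTG 113 bases before its start and Lyl1 CTTCCGG 182 bases before, both on the opposite strand; Abcb1a, Ly6c1 and Plaur had neither. Of 21909 starts, 18.4% held an ETS match in this window, and of the 1675 starts of genes at 100 CPM or more, 24.3% did. SOX (CCATTGT) and TCF/LEF (CTTTGAT) letters were found at 2.62% and 2.80% of all starts and at none of the 5 shown.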

How the data were processed

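The single-cell values are UMI counts per gene and barcode, as the authors deposited them in matrices of 27998 genes, made with Cell Ranger 4.0.0 per the file headers. The submitters' processing notes name mm10 and, for later steps, Seurat 4.0.4. Cells were chosen by the rule given above, and the members and gene lists were chosen with earlier results of these data known. UMIs of a gene were summed over cells and given as CPM (per 1000000 UMIs), with exact Poisson intervals for levels, exact binomial (Clopper-Pearson) intervals for shares and exact conditional intervals for ratios. With 1 library per age no p-value was computed. A gene was compared with the adult where either age had 20 CPM, and a ratio past 2-fold was counted. Where one age had fewer than 3 UMIs, a floor of 3 UMIs stood in for its count in ratios, counts and medians.

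Cells were clustered on 2000 variable genes and 30 principal components with 15 neighbours at resolution 1.0 (leidenalg 0.10.2, seed 0). Cluster ratios are against all other P8 endothelial cells. Scrublet (Scanpy 1.11.5) marked 1 of 7305 P8 and 2 of 5552 adult barcodes, so it did not work and no doublets were removed. Thinning drew 2000 UMIs per cell without replacement. Genes named in the text are the fixed lists, the 15 largest ratios in each direction, the most variable and most abundant genes, and the leading genes of clusters. The scripts were tested on simulated data.

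ATAC-seq peaks carry −log10 q-values and were called with MACS2 2.1.2, broad and without a control, per the file headers. The submitters' processing notes also name Bowtie2, SAMtools 1.13 and Picard. The authors' peaks were used as given, a peak counting when it lay within 500 bp of a RefSeq start on GRCm38.p6 (mm10). Their differential tables and signal tracks, and all other organs, were not used here. The labels do not say whether the 3 libraries of a group came from separate mice. Other settings tried are in the closing section. Some items are not reported here, though they are counted in the lists.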

Additional observations from a re-analysis of the deposited data

How the results depend on the processing

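No paired analysis was possible because no result here comes from a test: each age has 1 cell library, and peaks of the 3 endothelial and 3 input ATAC-seq libraries were only counted as present or not at each start. The number of cells passing the rule was 1198 with a mitochondrial limit of 5%. With a floor of 50 CPM, 437 genes were at least 2-fold higher and 575 lower at P8 than in the adult. The share of P8 cells in cycle was 12.8% with 2 genes, 5.26% with 5 genes, 5.02% at 1000 UMIs, 10.4% at 3000 UMIs and 28.4% without thinning; adult shares lay between 0% and 4.39%. Starts with a peak in all endothelial and no input library numbered 14 with a −log10 q of 5 or more, and 7 to 13 when 1 ATAC-seq library was left out, 13 without endothelial replicate 1 and 12 without input replicate 2; fewer peaks, or fewer libraries, then entered. Without endothelial replicate 1 the share was 0.994% beside 1.11% of all genes, so that the order of the 2 shares (0.535% beside 0.356%) turned; it did not with any other library left out. Starts of genes at 100 CPM with an endothelial peak numbered 1232 to 1279 in the same way. Leaving out cells of 5% or more erythroid UMIs, the other random draws and the pericyte-marker barcodes were chosen after seeing the data. Leaving out doublets was not run, because the caller did not work. Of 252 listed or leading genes recomputed under 7 settings (another scaling, or without some of the cells), none past 2-fold changed direction, 766 of 1764 values lay outside their counting interval, the largest shift was 4.71 on the log2 scale, and 33 genes crossed the 2-fold limit, among them Slc40a1, Rgcc, Adm, Fbln5, B2m, H2-D1, Egr1, Zfp36, Nos3, Smad7 and Lama5. Depth limits what a single cell shows: Slc7a3, at 24.0 CPM, had a UMI in 21.6% of cells. Cluster shares, cycle shares and ratios each come from 1 preparation per age.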

Other observations

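Genes that answer glucocorticoid or the daily clock were mostly low in the P8 endothelial cells. The 9 listed genes summed to 463 CPM at P8 and 1852 in adult cells. Of the 4 that reached 20 CPM at both ages, 3 were at least 2-fold lower at P8 and none higher; of all 5333 genes at that level at both ages 469 were lower, and of all genes compared 13.3%. Another 4 reached it in the adult only, and so had entered the comparison through the age at which they were high. The transcription factor Zbtb16 was at 3.76 CPM against 307, 81.6-fold lower, the clock gene Per2 at 1.93 against 32.4, the receptor chaperone Fkbp5 at 5.92 against 78.6 and Tsc22d3, a glucocorticoid target, at 141 against 648. Sgk1 was within 2-fold, at 108 against 140. The hour of collection was not given in the sources used here. Within the P8 cells Zbtb16 was at 35.9 CPM in the venous-like cluster 10 and 23.3 in the Plvap cells of cluster 13, and no higher than 7.22 in any other.

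Genes of the class I, Ly6 and interferon list were mostly lower as well. Of the 11, 10 were at least 2-fold lower at P8, beside 13.3% of all genes compared, and none higher. The median log2 ratio of the list was -1.82. Of these 10, Bst2 and Ifit3 reached 20 CPM in the adult only. Ly6a was at 397 against 3642 CPM, Ly6c1 at 885 against 4394, Bst2, which tethers viruses, at 11.4 against 116 and Ifit3, an interferon target, at 0.487 against 27.7. The class I genes H2-D1 (781 against 1648) and B2m (205 against 441) were within 2-fold as means over cells. Among the P8 clusters Ly6a was highest in arterial-like cluster 5, at 1118 CPM, and lowest in tip-like cluster 1, at 39.5.

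Of the 10 imprinted growth genes, some were far lower at P8 than in the embryo. H19 was at 1045 CPM in the E9.5 cells, 1330 at E12.5 and 0.877 at P8, and Peg3 at 502, 37.9 and 10.5. Cdkn1c stood at 712, 579 and 186 CPM, and at 232 in the adult cells, and Grb10 at 179, 184 and 70.0, and at 85.6 in the adult cells. The list summed to 334 CPM at P8 and to 1323 CPM in the arterial-like cluster 5. Of 12 immediate early and heat shock genes, which react to dissociation, 9 were within 2-fold of the adult and 3 were lower, beside 13.3% of all genes, with Jun at 1261 against 1359 and Fos at 503 against 715 CPM. Hspa1a (141 against 751), Hspa1b (78.8 against 316) and Zfp36 (44.1 against 103) were the 3 lower at P8; as means over cells Zfp36 was within 2-fold and Egr1 at least 2-fold higher.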
